A study of Mus musculus with 12 samples.

Results

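Cadherins and their catenins were followed in muscle stem cells (MuSCs) that were freshly isolated, cultured, or cultured under compression. The 8 genes described are those named Cdh2, Cdh4, Cdh11, Cdh13, Cdh15, Ctnna1, Ctnnb1 and Ctnnd1 in the gene count files. Each name matched 1 of the 55335 genes in the files, and all 8 passed the filter on low counts that left 22635 genes for testing. In mm10 they lie at chr18:16588877-16809246 (Cdh2, minus strand), chr2:179442431-179899373 (Cdh4, plus), chr8:102632095-102785642 (Cdh11, minus), chr8:118283733-119324921 (Cdh13, plus), chr8:122847966-122867397 (Cdh15, plus), chr18:35118859-35254779 (Ctnna1, plus), chr9:120929216-120960507 (Ctnnb1, plus) and chr2:84600071-84650765 (Ctnnd1, minus).

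Cadherins are calcium-dependent receptors that hold neighbouring cells together by binding the same cadherin on the next cell. A classical cadherin carries a β-catenin on its tail, α-catenin joins that complex to actin, and the p120-type catenin Ctnnd1 binds nearer the membrane and keeps the cadherin at the surface. In muscle, M-cadherin (Cdh15) and N-cadherin (Cdh2) lie at the contact between the quiescent MuSC and its myofiber, and β-catenin also acts in the nucleus as a coactivator of Wnt target genes.

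RNA was measured in 12 libraries of ZsGreen+ cells sorted from the hindlimb of adult Pax7-ZsGreen mice, in which the Pax7 promoter drives the reporter. Each of the 4 groups had 3 libraries. F cells were freshly isolated (replicates 1, 4 and 5). 2d-U cells were grown uncompressed for 2 days (replicates 1, 2 and 3), and 5d-U cells for 5 days (replicates 1, 2 and 6). 2+3d-C cells were grown for 2 days and then for 3 days under a pillar device that pressed on them from above (replicates 4, 5 and 10). All cells carried the reporter and no other allele is named. Cultures were grown on coated plastic in a serum-rich medium with FGF, and whole cultures were lysed with no second sort. The sources used here do not say which libraries came from separate animals, so the p-values measure the spread between these libraries. The reads counted on genes ranged from 12540745 in 2+3d-C replicate 5 to 62424851 in 2+3d-C replicate 4.

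The sorted cells carried RNA of the MuSC lineage in all groups. The summed RPKM (reads scaled to exon length and to library size, here with TMM-scaled library sizes) of 6 MuSC markers ranged from 552 to 1093 in F. It ranged from 868 to 1053 in 2d-U, from 899 to 1541 in 5d-U and from 3157 to 5520 in 2+3d-C, and none of the 6 was at 0 in all libraries of a group. Its most abundant gene was Myod1, which encodes the determination factor MyoD and gave 4540 of the 5520 in 2+3d-C replicate 5. Against 5d-U, 4 of the 6 (Des, Vcam1, Pax7 and Myod1) were called higher in 2+3d-C and 0 lower (adjusted p under 0.05, edgeR). Of all genes tested, 9.14% and 13.4% were. Between F and 2d-U, Vcam1 was called higher in F and Pax7 lower. Pax7 averaged 2.51 RPKM in F, 5.75 in 2d-U, 4.47 in 5d-U and 13.3 in 2+3d-C.

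Some libraries stood apart. Mitochondrial genes took 5.85% of reads in 5d-U replicate 1, against 0.0681% to 1.15% in the other libraries. Reads on 1853 genes of families that are silent in muscle, such as odorant receptors, reached 5.12 and 7.24 per kilobase in F replicates 4 and 5, 3.84 in 5d-U replicate 1 and 0.641 in 5d-U replicate 6, against at most 0.229 in the other libraries. Comparisons are therefore also given without these 4, named the 4 doubted libraries, which leaves 1 library each of F and 5d-U. In that fit the lone library is assumed to vary like the other groups. It called 5.90% of all genes tested for 2+3d-C against 5d-U, 17.2% for it against 2d-U and 0.0985% against F, with 8.79% for F against 2d-U, 0.897% for F against 5d-U and 0.0570% between the uncompressed cultures, so members called in it are read against these shares.

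RNA of other cell types also followed the groups. Of 6 endothelial markers, 5 were called higher and 0 lower in compressed than in 5d-U cells, beside 9.14% and 13.4% of all genes tested. Also called higher there were 3 of 6 fibroadipogenic, 2 of 5 glial and 4 of 6 smooth muscle and pericyte markers, with 0 called lower. Without the 4 libraries with reads on silent families, the calls that remained were those of Dpt, Rgs5 and Myh11. The endothelial markers had a summed RPKM of 77.8, 116 and 48.8 in 2+3d-C replicates 4, 5 and 10. The sum was 224, 241 and 357 in F replicates 1, 4 and 5, 1.13, 1.53 and 0.485 in 2d-U replicates 1 to 3, and 5.59, 0.363 and 0.596 in 5d-U replicates 1, 2 and 6, and Cldn5 was the most abundant of the 6. Sums of 6 fibroadipogenic markers were 566 to 1385 in F and 187 to 389 in 2+3d-C, against 0.121 to 2.17 in 2d-U and 6.06 to 34.1 in 5d-U, with Pdgfra, Lum, Pi16 and Dpt at 0 reads in all 2d-U libraries. The leading gene of this sum was Dcn in F (276 to 779 RPKM) and Dpt in 2+3d-C (119 to 218 RPKM), while the receptor Pdgfra, a defining marker, was at most 0.848 in 2+3d-C. Sums of 5 glial markers were 51.0 to 87.6 in F and 19.3 to 66.4 in 2+3d-C, and at most 2.30 in a 2d-U or 5d-U library, with Mbp the most abundant over the libraries and Sox10 and S100b at 0 reads in all 2d-U libraries.

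Smooth muscle and pericyte markers summed to 229 to 274 in F, 80.5 to 148 in 2+3d-C and 28.5 to 38.8 in 2d-U. Their 5d-U libraries ran from 22.5 to 328, mostly from Acta2. The 4 called were Rgs5, Kcnj8, Abcc9 and Myh11, all at 0 reads in the 2d-U libraries, and Rgs5 was at 26.3 to 93.2 RPKM in F, 4.96 to 9.77 in 2+3d-C and 0.368 to 1.33 in 5d-U. Immune markers summed to 33.6 to 59.8 in F and to at most 9.09 elsewhere, and Ptprc and Cd3e were at 0 reads in all 2+3d-C libraries. Cd68 was the most abundant by mean, but in F replicate 1 Cd79a was higher (29.5 against 12.9 RPKM). Myofiber markers, led by Acta1, summed to 975 and 1668 in 5d-U replicates 2 and 6 and to 1566 and 878 in F replicates 4 and 5, against 18.3 to 114 in the other 8 libraries. In compressed against 5d-U cells, 3 of 6 myofiber markers (Tnni2, Tnnt3 and Acta1) and 1 of 6 immune markers (Ptprc) were called lower. In both lists 0 were called higher, beside 13.4% of all genes tested called lower and 9.14% higher. In these bulk samples, fewer cells of a type and less RNA per cell cannot be told apart.

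Of the 8 genes, 5 differed over the 4 groups in the quasi-likelihood test of edgeR at an adjusted p under 0.05, beside 44.3% of all genes tested. They were Cdh13 (adjusted p = 4.63e-06), Cdh11 (0.00171), Cdh2 (0.00228), Ctnnd1 (0.0162) and Cdh4 (0.0359). Cdh15 (0.0615), Ctnna1 (0.208) and Ctnnb1 (0.405) did not pass that test. Without the 4 libraries with reads on silent families, 2 of the 8 passed it, beside 11.3% of all genes tested.

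**Figure D1:**
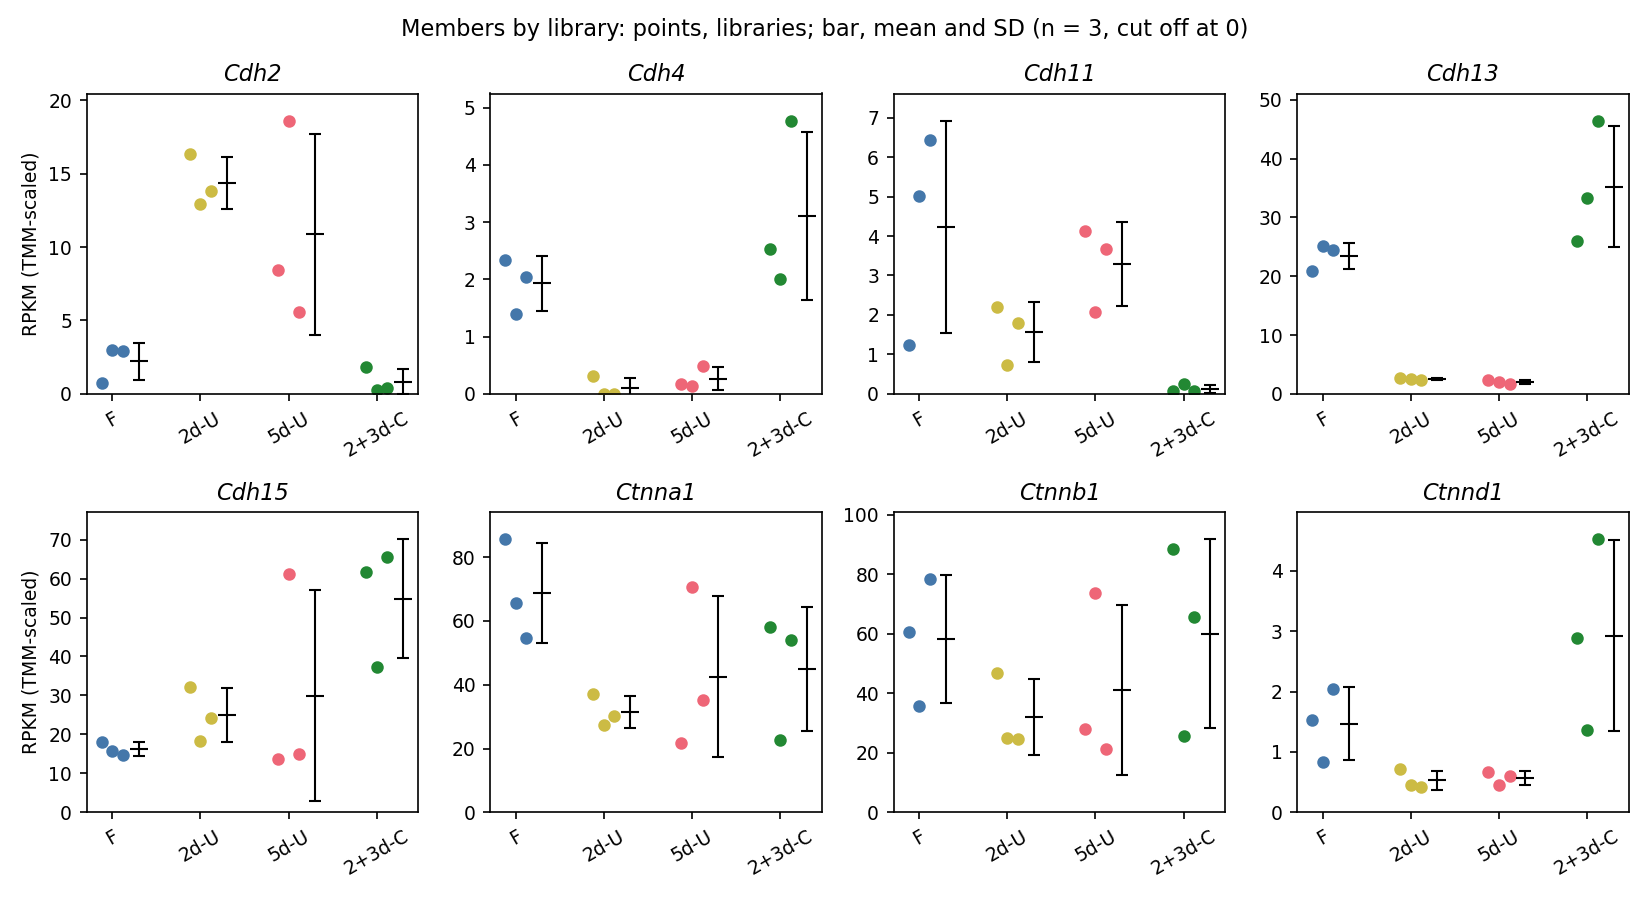
RPKM (vertical axis, linear from 0) of each of the 8 genes in the 4 groups. Each point is 1 library, and the bar beside it gives the mean and SD of the 3. Cdh13 sat at or above 21.0 in all F and 2+3d-C libraries and at or below 2.67 in all 2d-U and 5d-U libraries, while the groups of Ctnnb1 overlapped.

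Among the cadherins, 2+3d-C cells differed from 5d-U cells of the same total culture time in opposite directions. Cdh13 was higher, Cdh2 and Cdh11 were lower, and Cdh15 did not pass the test. With Ctnnd1, 4 of the 8 genes were called in this comparison, 2 higher and 2 lower, beside 22.6% of all genes tested (9.14% higher and 13.4% lower). The median log2 fold change of the 8 was 0.71, against -1.05 over all genes tested. Without the 4 libraries with reads on silent families, 2 of the 8 remained called, Cdh13 and Cdh2, beside 5.90% of all genes tested.

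Cdh2 encodes N-cadherin, a classical cadherin of the MuSC contact with the myofiber. Its RPKM was 8.47, 18.6 and 5.58 in 5d-U replicates 1, 2 and 6, and 1.82, 0.254 and 0.402 in 2+3d-C replicates 4, 5 and 10. All 3 compressed libraries lay below all 3 uncompressed ones, and replicate 4 was the highest of the compressed. The log2 fold change was -3.70 ± 0.77 (SE; adjusted p = 0.00362, edgeR quasi-likelihood test), and leaving out each library of the 2 groups in turn kept it between -5.04 and -3.07. It was -4.47 without the 4 libraries with reads on silent families (adjusted p = 0.0303, edgeR).

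In 2d-U, the culture from which compression started, Cdh2 was at 16.4, 12.9 and 13.8 RPKM. These were close to each other and above every F and 2+3d-C library. The fall from 2d-U to 2+3d-C was -4.10 ± 0.79 on the log2 scale (SE; adjusted p = 0.00191, edgeR). In F cells Cdh2 was at 0.772 RPKM in replicate 1 and at 2.99 and 2.91 in replicates 4 and 5, also below all 2d-U libraries.

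The F level of Cdh2 was lower than that of 2d-U by a log2 fold change of -2.69 ± 0.74 (SE; adjusted p = 0.0132, edgeR), and lower than that of 5d-U by -2.29 ± 0.73 (SE; adjusted p = 0.0362, edgeR). The second of these was lost without 5d-U replicate 2 or without any 1 of the F libraries (adjusted p up to 0.219, edgeR). Without the 4 libraries with reads on silent families the values were -4.23 (adjusted p = 0.0819, edgeR) and -4.60 (adjusted p = 0.161, edgeR). By mean RPKM the order was 2d-U (14.4 ± 1.78, SD, n = 3), 5d-U (10.9 ± 6.84), F (2.22 ± 1.26) and 2+3d-C (0.825 ± 0.864). Neither 2d-U and 5d-U (log2 difference -0.40, adjusted p = 0.734, edgeR) nor F and 2+3d-C (-1.41, adjusted p = 0.160, edgeR) differed by the test. Leaving out single libraries of F and 2+3d-C gave -2.73 to -0.98, with a call without 2+3d-C replicate 4 (adjusted p = 0.0299, edgeR).

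Cdh11 encodes the OB-cadherin of mesenchymal cells. It had 846, 531 and 668 reads in 5d-U replicates 1, 2 and 6, but 33, 18 and 14 in 2+3d-C replicates 4, 5 and 10, and on the RPKM scale 4.13, 2.08 and 3.66 against 0.0694, 0.244 and 0.0717. No compressed library overlapped with any library of the other groups. The log2 fold change of Cdh11 in compressed cells was -4.75 ± 0.82 against 5d-U (SE; adjusted p = 0.00106, edgeR), and -3.69 ± 0.78 against 2d-U (SE; adjusted p = 0.00376, edgeR). Against 5d-U it was -4.06 without the 4 doubted libraries, and the call was lost (adjusted p = 0.0661, edgeR).

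Cdh11 was the only one of the 8 genes called between 2+3d-C and F in the main edgeR fit, beside 6.40% of all genes tested (1.94% higher and 4.47% lower). F replicates 1, 4 and 5 were at 1.24, 5.01 and 6.44 RPKM, with the lowest value in the library that had few reads on silent families. The log2 fold change was -5.12 ± 0.83 (SE; adjusted p = 0.00474, edgeR), and -3.30 without the 4 doubted libraries (adjusted p = 0.431, edgeR). By mean RPKM the order was F (4.23 ± 2.69, SD, n = 3), 5d-U (3.29 ± 1.07), 2d-U (1.57 ± 0.761) and 2+3d-C (0.128 ± 0.100). The first 3 groups did not differ from each other by the main edgeR test. F against 2d-U was called with DESeq2 (1.68, adjusted p = 0.0428) and without F replicate 1 (adjusted p = 0.0224, edgeR).

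Cdh13 encodes T-cadherin, which is tied to the membrane by a lipid anchor and has no tail for catenins. It had the smallest p of the 8 genes in the test over the 4 groups. Its RPKM was 21.0, 25.2 and 24.4 in F replicates 1, 4 and 5, 2.67, 2.50 and 2.34 in 2d-U replicates 1 to 3, 2.35, 1.95 and 1.70 in 5d-U replicates 1, 2 and 6, and 26.0, 33.3 and 46.4 in 2+3d-C replicates 4, 5 and 10. Every F and 2+3d-C library lay far above every 2d-U and 5d-U library.

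The log2 fold change of Cdh13 in 2+3d-C was 4.14 ± 0.39 against 5d-U (SE; adjusted p = 1.32e-05, edgeR) and 3.82 ± 0.38 against 2d-U (SE; adjusted p = 1.80e-05, edgeR). In F it was 3.23 ± 0.37 against 2d-U (SE; adjusted p = 6.29e-05, edgeR) and 3.55 ± 0.38 against 5d-U (SE; adjusted p = 6.75e-05, edgeR). Leaving out any library of the compared groups kept these 4 calls. Without the 4 doubted libraries the values were 4.17 against 5d-U for 2+3d-C and 3.05 against 2d-U for F, both still called (adjusted p = 0.00932 and 0.00572, edgeR), and 3.42 for F against 5d-U (adjusted p = 0.0503, edgeR).

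The 2+3d-C libraries of Cdh13 also lay above all F libraries, with means of 35.3 ± 10.3 and 23.5 ± 2.23 RPKM (SD, n = 3), but the difference did not pass the test (log2 0.58, 95% CI -0.15 to 1.32, adjusted p = 0.231, edgeR). The endothelial, fibroadipogenic and glial marker sums were, like Cdh13, high in F and 2+3d-C and low in 2d-U and 5d-U, as were Rgs5, Kcnj8 and Myh11 of the 6 smooth muscle and pericyte markers. Of the other 3, Abcc9 overlapped between 2+3d-C and 5d-U, Cspg4 averaged 0.543 and 0.488 RPKM in these groups, and Acta2 had its highest mean in 5d-U (212 RPKM). The endothelial and fibroadipogenic sums and Rgs5, Kcnj8 and Myh11 were lower in each 2+3d-C library than in each F library, and the glial sums overlapped. Dpt of the fibroadipogenic list was, like Cdh13, higher in each 2+3d-C library (119 to 218 RPKM) than in each F library (58.5 to 88.1). The part of those cells in the Cdh13 level was not tested.

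**Figure D2:**
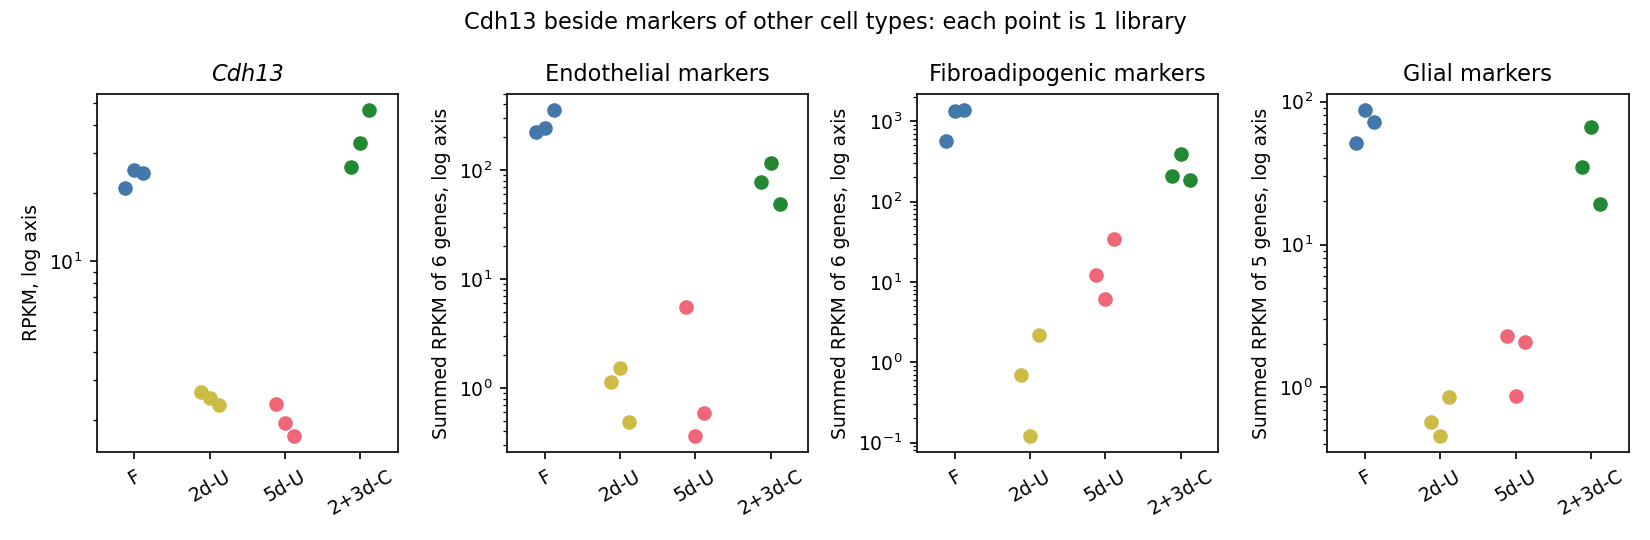
RPKM of Cdh13 and summed RPKM of 6 endothelial, 6 fibroadipogenic and 5 glial markers (vertical axes, log scale) in the 4 groups, with 1 point per library. All 4 measures were high in F and 2+3d-C, and Cdh13 was higher in 2+3d-C (26.0 to 46.4) than in F (21.0 to 25.2) while the endothelial sum was lower (48.8 to 116 against 224 to 357).

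Cdh4 encodes R-cadherin, a classical cadherin close to N-cadherin. It had 117, 0 and 0 reads in 2d-U replicates 1 to 3 and 28, 27 and 73 in 5d-U replicates 1, 2 and 6. In 5d-U replicate 1 the density of reads on silent families alone predicts 27.9 of the 28 reads. The RPKM was 2.34, 1.4 and 2.05 in F replicates 1, 4 and 5 and 2.53, 2.01 and 4.77 in 2+3d-C replicates 4, 5 and 10, above the 0.491 of the highest 5d-U library in every case.

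Cdh4 was called higher than 2d-U in 2+3d-C (log2 4.90 ± 1.51, SE; adjusted p = 0.0292, edgeR) and in F (4.22 ± 1.47, SE; adjusted p = 0.0351, edgeR). With 0 reads in 2d-U replicates 2 and 3, the size of these values rests on replicate 1. The call for 2+3d-C was lost without 2d-U replicate 2 (adjusted p = 0.0503, edgeR), and that for F without 2d-U replicate 2 or 3 or F replicate 4 or 5 (adjusted p up to 0.0703, edgeR). Neither was called without the 4 doubted libraries (adjusted p = 0.121 and 0.207, edgeR), with the 2 groups alone (0.106 and 0.0912) or after subtraction of the reads expected from silent families (0.0575 and 0.0685). Against 5d-U the value for 2+3d-C was 3.56 (adjusted p = 0.0803, edgeR) and that for F 2.88 (adjusted p = 0.174, edgeR). Both were called with DESeq2 (adjusted p = 0.0136 and 0.0319), with no filter on low counts (adjusted p = 9.90e-04 and 0.00994, edgeR) and with the 2 groups alone (adjusted p = 0.0162 and 0.0153, edgeR). The order by mean RPKM was 2+3d-C (3.10 ± 1.47, SD, n = 3), F (1.93 ± 0.481), 5d-U (0.263 ± 0.199) and 2d-U (0.101 ± 0.176), and neither the upper nor the lower pair differed by the test. Endothelial, fibroadipogenic, glial and, apart from Acta2, smooth muscle and pericyte markers were also higher on average in F and 2+3d-C, and their part was not tested. Of these, Cspg4 overlapped between 2+3d-C and 5d-U, with close means.

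Cdh15 encodes M-cadherin, which marks the muscle lineage. It was at 18.1, 15.8 and 14.6 RPKM in F replicates 1, 4 and 5 and at 61.7, 37.4 and 65.5 in 2+3d-C replicates 4, 5 and 10. All compressed libraries lay above all F libraries, but the log2 difference of 1.76 ± 0.54 (SE) missed the threshold (adjusted p = 0.0629, edgeR). It was called with DESeq2 (1.54, adjusted p = 0.0323).

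The 2d-U libraries of Cdh15 were at 32.2, 18.4 and 24.2 RPKM, between those of F and 2+3d-C. In 5d-U, replicate 2 was at 61.3 RPKM and replicates 1 and 6 at 13.6 and 15.0, and 1 library reached the compressed level. The log2 difference of 2+3d-C from 5d-U was 0.87 (95% CI -0.26 to 2.01, adjusted p = 0.203, edgeR). Without 5d-U replicate 2 it was 1.93 (adjusted p = 0.0139, edgeR), and without the 4 doubted libraries, which leaves 5d-U replicate 2 alone, -0.16. The order by mean RPKM was 2+3d-C (54.8 ± 15.2, SD, n = 3), 5d-U (29.9 ± 27.1), 2d-U (24.9 ± 6.91) and F (16.2 ± 1.79), with no neighbours differing by the test.

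**Figure D3:**
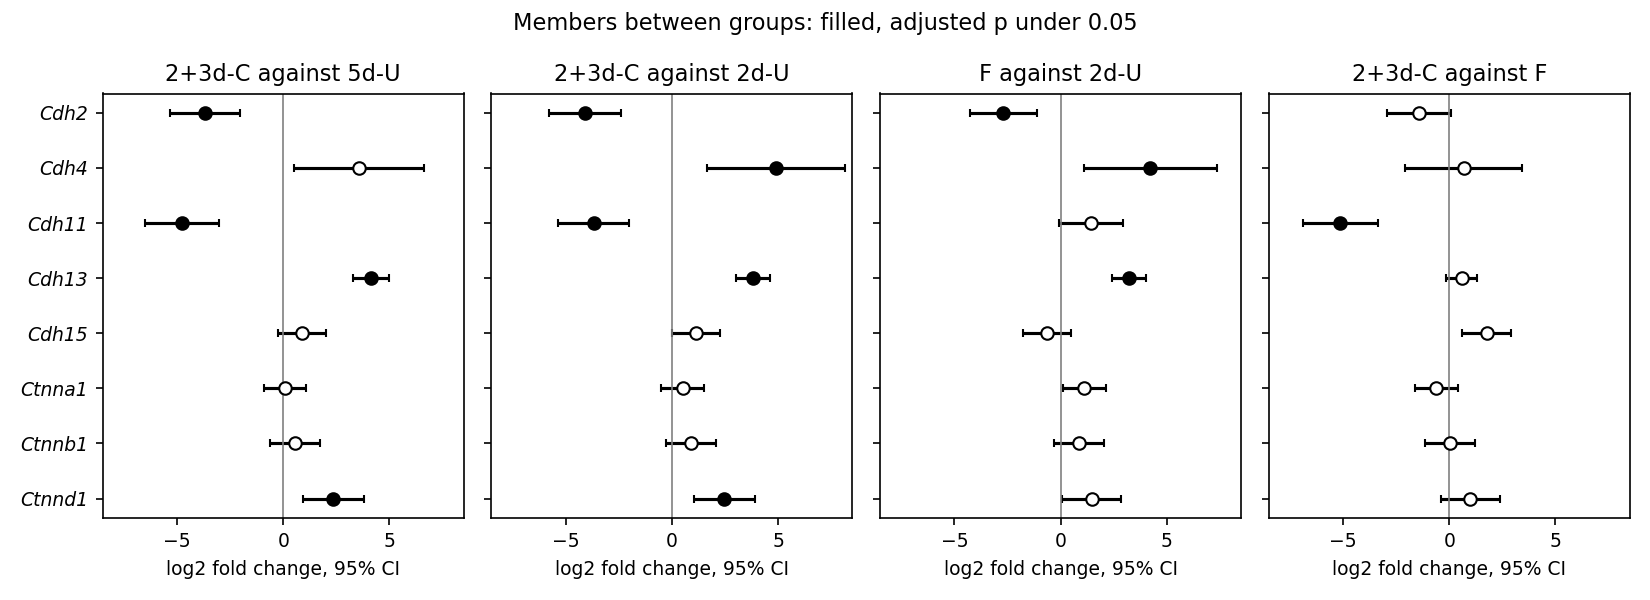
Log2 fold changes (horizontal axis) of the 8 genes in 4 comparisons, with 95% confidence intervals from edgeR. Filled points have an adjusted p under 0.05. Cdh2 (-3.70) and Cdh13 (4.14) lay on opposite sides in 2+3d-C against 5d-U, and Cdh11 (-5.12) was the only filled point in 2+3d-C against F.

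The comparison of F with 2d-U shares no library with that of 2+3d-C with 5d-U. In it, 3 of the 8 genes were called (2 higher, 1 lower), beside 43.8% of all genes tested (33.3% higher and 10.6% lower). Cdh2 was lower in both comparisons (-2.69 and -3.70) and Cdh13 higher in both (3.23 and 4.14). Cdh11 had 1.43 in F against 2d-U (adjusted p = 0.100, edgeR) and -4.75 in 2+3d-C against 5d-U. The difference between the comparisons was not tested.

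In 2+3d-C against 2d-U, 5 of the 8 were called (3 higher, 2 lower), beside 24.6% of all genes tested (16.0% higher and 8.63% lower). Over all genes that split was 3619 higher and 1954 lower, and 2540 higher and 3143 lower with library sizes not scaled by TMM. In F against 5d-U, 2 were called, Cdh13 and Cdh2, beside 20.5% of all genes (8.90% higher and 11.6% lower). In 5d-U against 2d-U, edgeR called 0 of the 8, beside 2.12% of all genes (1.87% higher and 0.243% lower). There none of the 8 had an unadjusted p under 0.05, and DESeq2 called 0 as well, beside 12.4% of all genes.

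Set on 1 scale per length, the 5 cadherins made up different mixtures. Their summed RPKM was 48.1 ± 4.01 in F, 43.4 ± 9.64 in 2d-U, 46.4 ± 32.6 in 5d-U and 94.1 ± 22.1 in 2+3d-C (SD, n = 3). In F, Cdh13 held 48.2%, 49.9% and 48.4% of that sum in replicates 1, 4 and 5, and Cdh15 41.7%, 31.4% and 29.0%. In 2d-U, Cdh15 held 59.9%, 53.3% and 57.4% and Cdh2 30.5%, 37.4% and 32.8%, with 4.97% to 7.23% for Cdh13.

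In 5d-U, as in 2d-U, Cdh15 and then Cdh2 held the largest shares, whereas Cdh11 lay above Cdh13 in all 3 5d-U libraries and below it in all 3 of 2d-U. In 5d-U, Cdh15 held 47.3% to 72.9%, Cdh2 21.1% to 29.5%, Cdh11 2.47% to 14.4% and Cdh13 2.33% to 8.19%. In 2+3d-C, Cdh15 held 66.9%, 51.0% and 55.9% and Cdh13 28.3%, 45.5% and 39.6% in replicates 4, 5 and 10, while Cdh2 held at most 1.98% and Cdh11 at most 0.333%. The second cadherin by share was thus Cdh2 in all 6 uncompressed culture libraries and Cdh13 in all 3 compressed ones. The ratio of Cdh2 to Cdh15 RPKM within a library was 0.304 to 0.702 in the 6 uncompressed culture libraries, 0.0426 to 0.199 in F and 0.00613 to 0.0295 in 2+3d-C, with no overlap between these 3 ranges.

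**Figure D4:**
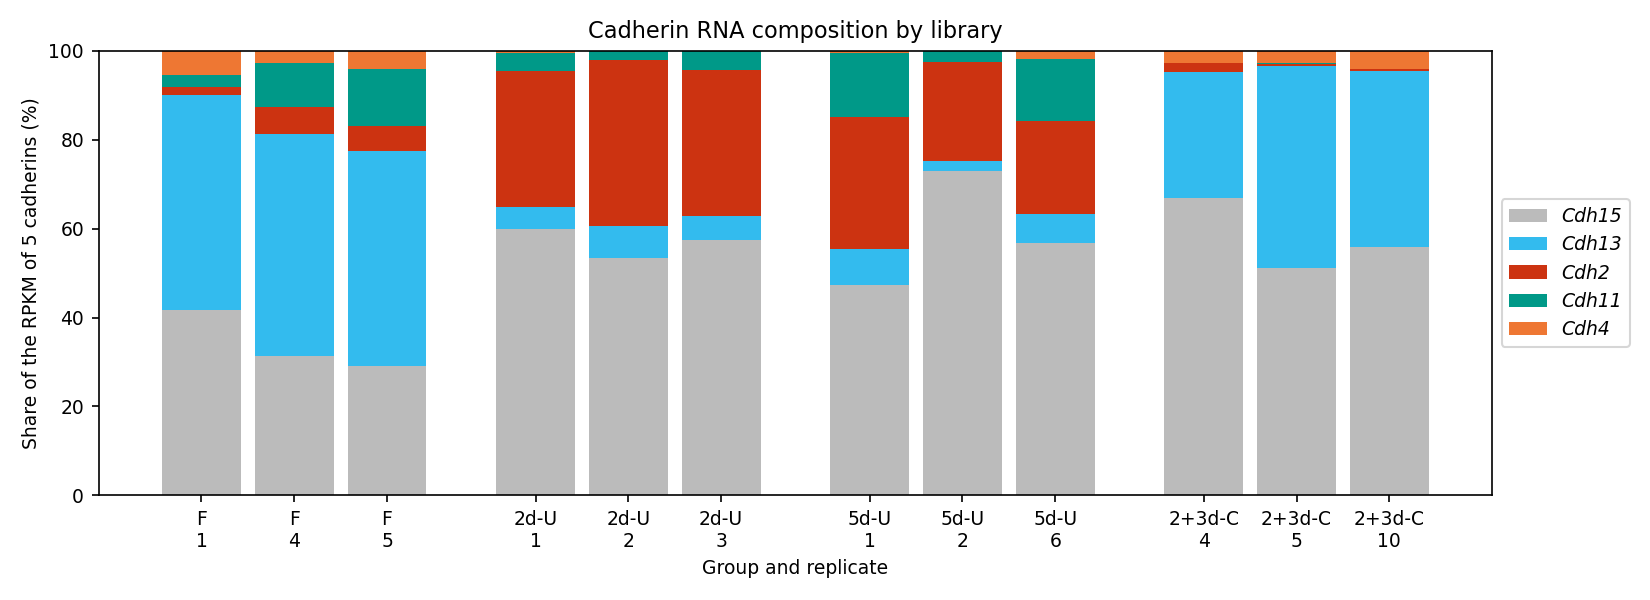
Share of each of the 5 cadherins in their summed RPKM (vertical axis, percent) in each of the 12 libraries, labelled by group and replicate. Cdh2 held 21.1% to 37.4% in the 2d-U and 5d-U libraries and at most 5.93% in F and 2+3d-C, where Cdh13 held 28.3% to 49.9%.

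Of the 3 catenins of the cadherin tail, 1 was called in any comparison of the main edgeR fit. Ctnna1, the α-catenin that links the complex to actin, was at 85.6, 65.6 and 54.7 RPKM in F replicates 1, 4 and 5, at 37.1, 27.3 and 30.2 in 2d-U, at 21.7, 70.6 and 35.4 in 5d-U and at 58.2, 22.8 and 53.9 in 2+3d-C. All F libraries lay above all 2d-U libraries, and the other groups overlapped. The log2 difference of F from 2d-U was 1.12 (95% CI 0.11 to 2.14, adjusted p = 0.0632, edgeR; 1.30 with an adjusted p = 0.0197 by DESeq2), and that of 2+3d-C from 5d-U 0.08 (95% CI -0.92 to 1.08, adjusted p = 0.907, edgeR).

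Ctnnb1, the β-catenin, was at 60.6, 35.6 and 78.4 RPKM in F, at 46.7, 24.9 and 24.5 in 2d-U, at 28.0, 73.9 and 21.4 in 5d-U and at 88.6, 25.8 and 65.6 in 2+3d-C. All 4 groups overlapped. The log2 difference of 2+3d-C from 5d-U was 0.55 (95% CI -0.64 to 1.73, adjusted p = 0.450, edgeR) and that from F 0.05 (95% CI -1.13 to 1.22, adjusted p = 0.965, edgeR). Of the 8 genes these 2 had the highest level per length in F.

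Ctnnd1, the catenin that keeps cadherins at the surface, was the only one of the 3 catenins with a call in the main edgeR fit. Its RPKM was 1.53, 0.833 and 2.04 in F replicates 1, 4 and 5 and reached 2.89, 1.37 and 4.52 in 2+3d-C replicates 4, 5 and 10. It was 0.712, 0.460 and 0.426 in the 2d-U libraries, and 0.664, 0.447 and 0.594 in the 5d-U libraries. All F and 2+3d-C libraries lay above all uncompressed culture libraries, and F and 2+3d-C overlapped. The log2 fold change of 2+3d-C was 2.36 ± 0.67 against 5d-U (SE; adjusted p = 0.0210, edgeR) and 2.46 ± 0.67 against 2d-U (SE; adjusted p = 0.0163, edgeR).

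With libraries of the compared groups left out singly, the log2 fold change of Ctnnd1 stayed between 1.90 and 2.70 against 5d-U and between 2.00 and 2.79 against 2d-U. Against 5d-U the call was lost without 2+3d-C replicate 10 or any 1 of the 5d-U libraries (adjusted p up to 0.0857, edgeR), and against 2d-U without 2+3d-C replicate 10 or 2d-U replicate 2 or 3 (up to 0.0864). Without the 4 doubted libraries the values were 2.71 (adjusted p = 0.221, edgeR) and 2.45 (adjusted p = 0.0525, edgeR). The F value was 1.46 against 2d-U (adjusted p = 0.0742, edgeR). The order by mean RPKM was 2+3d-C (2.92 ± 1.58, SD, n = 3), F (1.47 ± 0.607), 5d-U (0.569 ± 0.111) and 2d-U (0.532 ± 0.156). Endothelial, fibroadipogenic and glial marker sums were high in the same 2 groups, F and 2+3d-C, and their part in the Ctnnd1 level was not tested.

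The level of Ctnnd1 may be understated by the annotation. The gene lies at chr2:84600071-84650765 on the minus strand (mm10), and 61.2% of its 7319 exon bases are shared with the exons of Gm28635. Gm28635 had 0 reads in all 12 libraries, and whether reads that fall on both genes were left uncounted was not tested. Reads were not counted by exon. If all counted reads lay on the 2837 exon bases of its own, Ctnnd1 would be at 7.54 ± 4.07 RPKM in 2+3d-C. The value for 5d-U would be 1.47 ± 0.286 (SD, n = 3). Of the exon bases of Ctnnb1, at chr9:120929216-120960507 on the plus strand, 15.1% overlap with Ulk4 or Mir7090.

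The stretches before the start sites of Ctnnd1, which was called in the main edgeR fit, and of Ctnnb1, which was not, are shown side by side. They are RefSeq promoter windows (GRCm38.p6, 5′ to 3′ on the strand of the gene), limited to the bases before the start site that no annotated exon covers, with matches to CCAAT on either strand in capitals. The RefSeq start of Ctnnb1 lies inside the gene span given above, downstream of its first base.
Ctnnd1, chr2:84650766-84650990, minus strand: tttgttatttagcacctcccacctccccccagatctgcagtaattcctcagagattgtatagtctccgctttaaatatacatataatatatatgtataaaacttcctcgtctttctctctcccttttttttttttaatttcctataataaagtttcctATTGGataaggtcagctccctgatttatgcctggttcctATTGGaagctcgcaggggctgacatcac
Ctnnb1, chr9:120933150-120933399, plus strand: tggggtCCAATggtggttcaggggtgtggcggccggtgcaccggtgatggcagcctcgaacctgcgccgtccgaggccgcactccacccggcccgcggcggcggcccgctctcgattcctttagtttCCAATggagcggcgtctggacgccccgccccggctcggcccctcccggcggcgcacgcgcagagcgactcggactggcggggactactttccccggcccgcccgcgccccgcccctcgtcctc

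The Ctnnd1 stretch has 38.2% G or C over 225 bases and the Ctnnb1 stretch 74.8% over 250 bases, against a median of 52.4% over the 250 bases before the start in 32851 promoters. Each holds 2 matches to CCAAT, searched as CCAAT and ATTGG and chosen after the sequences were seen. Of all promoters, 33.8% hold at least 1 match and 10.1% at least 2.

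Among the 10 other catenins, the β-catenin relative Jup had the smallest p between 2+3d-C and 5d-U and was the only one called higher there. Jup encodes plakoglobin (γ-catenin), which can take the place of β-catenin on a cadherin tail and also serves desmosomes. It was at 26.6, 28.2 and 34.7 RPKM in F and at 42.9, 9.37 and 32.2 in 2+3d-C replicates 4, 5 and 10. The 2d-U libraries were at 3.69, 2.78 and 2.25 RPKM, and the 5d-U libraries at 1.06, 2.41 and 1.84. Every F and 2+3d-C library lay above every uncompressed culture library.

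The log2 fold change of Jup was 3.99 ± 0.56 in 2+3d-C against 5d-U (SE; adjusted p = 2.52e-04, edgeR) and 3.36 ± 0.55 in F against 2d-U (SE; adjusted p = 6.43e-04, edgeR). The ratio of Jup to Ctnnb1 RPKM within a library was 0.363 to 0.793 in F and 2+3d-C and 0.0326 to 0.112 in 2d-U and 5d-U. The Ctnnb1 levels overlapped between all groups. Without the 4 doubted libraries Jup was called in F against 2d-U (3.18, adjusted p = 0.0332, edgeR), and not in 2+3d-C against 5d-U (3.55, adjusted p = 0.0762, edgeR). Sums of endothelial, fibroadipogenic and glial markers were also high in F and 2+3d-C, and their part in the Jup level was not tested.

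Of the plakophilins, the p120-type catenins of desmosomes, Pkp1, Pkp2 and Pkp3 were called lower in compressed than in 5d-U cells and Pkp4 was not called (log2 0.92, adjusted p = 0.191, edgeR). Pkp2 was at 3.65, 8.62 and 3.46 RPKM in 5d-U and at 0.241, 0.0225 and 0.179 in 2+3d-C, a log2 fold change of -5.06 ± 0.84 (SE; adjusted p = 8.27e-04, edgeR), and this call remained without the 4 doubted libraries. In F it was at 0.232 to 1.16 RPKM and in 2d-U at 7.09 to 8.23, again with no overlap (log2 -3.33, adjusted p = 0.00540, edgeR). Pkp1 and Pkp3 had 3 or fewer reads in every 2+3d-C library and were lower than in 5d-U by at least 5.42-fold and 12.2-fold. Ctnna2 and Ctnna3 were also called lower in compressed cells, but neither was without 5d-U replicate 6, 2+3d-C replicate 4 or 10, or F replicate 4 or 5, and Pkp3 was lost without 2+3d-C replicate 4. Without the 4 doubted libraries Pkp2 was the only one of these called lower. In all, 1 of the 10 was called higher and 5 lower there, beside 9.14% and 13.4% of all genes tested, with a median log2 fold change of -5.49, or -2.11 with genes at 3 or fewer reads set to their bound, against -1.05 over all genes tested. Pkp4 was called higher in compressed than in 2d-U cells (1.75, adjusted p = 0.0325, edgeR), and Ctnnal1, Ctnna2, Ctnna3, Ctnnd2 and Jup in F than in 2d-U, where 33.3% of all genes tested were called higher. Ctnna2 and Ctnnd2 had 0 reads in F replicate 1. In F replicates 4 and 5 Ctnna2 had 52 and 72 reads, beside 35.6 and 50.3 expected from silent families, and Ctnnd2 had 108 and 191, beside 52.9 and 74.7. Jup was the only one of these 5 called in F against 2d-U without the 4 doubted libraries.

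The 18 other cadherins were low in culture. Cdh5 (VE-cadherin of endothelium) was at 14.0, 12.9 and 27.5 RPKM in F and at 2.59, 2.07 and 6.66 in 2+3d-C. The 2d-U libraries were at 0.216, 0 and 0 RPKM, and the 5d-U libraries at 0.341, 0 and 0.0697. It was the only one of the 18 called between 2+3d-C and 5d-U (log2 4.79, adjusted p = 0.0301, edgeR), and 0 of the 18 were with DESeq2, and 0 of the 11 that could be tested were without the 4 doubted libraries. The Cdh5 call was also lost without 5d-U replicate 2 or 6. Of all genes tested in 2+3d-C against 5d-U, edgeR called 22.6% and DESeq2 31.9%. Cdh18 had 0 reads in 2+3d-C and 6, 28 and 22 in 5d-U and was not called (adjusted p = 0.0752, edgeR). Cdh19, a cadherin of Schwann cells, was at 3.34 to 5.62 RPKM in F and at 0 reads in 2d-U, at least 246-fold higher in F. Cdh23 and Cdh19 were also called higher in compressed than in 2d-U cells, and Cdh3, Cdh7, Cdh8, Cdh9, Cdh23 and Cdh26 in F than in 2d-U. With Cdh5 and Cdh19 these were 8 of the 18, beside 33.3% of all genes tested. Cdh7, Cdh8, Cdh9 and Cdh26 had 0 reads in F replicate 1. In F replicates 4 and 5 Cdh7 had 61 and 109 reads, beside 51.4 and 72.7 expected from silent families, and Cdh8 had 50 and 46, beside 39.7 and 56.1. Subtraction of the expected reads left 39.6% of all genes tested called in F against 2d-U. With the expected reads subtracted, Cdh5, Cdh19 and Cdh23 were the 3 called of 13 that could be tested, and without the 4 doubted libraries each of the 8 calls was lost or its gene could not be tested. Cdh1 (E-cadherin) was at 2.48 to 6.32 RPKM in F and at most 0.614 elsewhere and was not called (F against 2d-U, adjusted p = 0.0671, edgeR). The median log2 fold change of the 18 in 2+3d-C against 5d-U was -4.52, or -0.77 with genes at 3 or fewer reads set to their bound.

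Of 14 partners of the junction, 4 were called higher and 1 lower in compressed than in 5d-U cells, beside 9.14% and 13.4% of all genes tested, with a median log2 fold change of 1.31. Nectin3, an adhesion receptor that acts beside cadherins, was at 22.6, 32.5 and 24.5 RPKM in 2+3d-C and at 4.01, 9.11 and 5.67 in 5d-U (log2 2.08 ± 0.43, SE; adjusted p = 0.00314, edgeR), and it was also higher than in F (1.5, adjusted p = 0.0470, edgeR). The LIM protein Limd1 had a log2 fold change of 3.73 (adjusted p = 6.28e-04, edgeR), with 82.4, 16.9 and 96.8 RPKM in 2+3d-C against 3.14 to 6.80 in 5d-U. Zyx, which binds tensed actin, was at 92.3 to 103 RPKM in 2+3d-C and 36.6 to 48.2 in 5d-U (log2 1.25, adjusted p = 0.0144, edgeR), a call lost without 5d-U replicate 1 or 2 or without 2+3d-C replicate 4 or 10. In 2d-U Zyx was already at 76.4 to 96.2 RPKM, and it was not called in 2+3d-C against 2d-U. Zyx was lower in F than in 2d-U (-1.14, adjusted p = 0.0167, edgeR). Vcl, the vinculin that binds stretched α-catenin, was the other of the 4. It was at 23.8, 2.83 and 9.97 RPKM in 2+3d-C replicates 4, 5 and 10, with replicate 5 inside the 5d-U range (1.15 to 2.87). Ajuba, a relative of Limd1, was the gene called lower. Vcl and Ajuba were named after their values were seen. Without the 4 doubted libraries 0 of the 14 were called.

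Of 6 genes that process cadherins, 2 were called higher and 0 lower in compressed than in 5d-U cells, beside 9.14% and 13.4% of all genes tested (median log2 1.18). Furin, a protease that removes the cadherin propeptide, was at 53.8, 9.13 and 56.8 RPKM in 2+3d-C and 1.77 to 2.39 in 5d-U (log2 4.2 ± 0.61, SE; adjusted p = 3.02e-04, edgeR), but in 2d-U it was already at 13.8 to 16.5. Ncstn, a subunit of the γ-secretase that cuts cadherin tails, was at 33.3, 24.0 and 49.9 RPKM in 2+3d-C and 13.2 to 17.2 in 5d-U (log2 1.18, adjusted p = 0.0418, edgeR), with 21.0 to 35.3 in 2d-U and 25.1 to 35.4 in F. With a single library left out, Furin stayed called each time, whereas Ncstn stayed called without 2+3d-C replicate 5 or F replicate 1 and was lost without any other library. Neither was called without the 4 doubted libraries. The protease Adam10 had -0.56 (adjusted p = 0.423, edgeR) and the ubiquitin ligase Cbll1 1.57 (adjusted p = 0.0780, edgeR).

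Of 8 genes of the β-catenin destruction complex, 4 were called higher and 0 lower in compressed than in 5d-U cells, beside 9.14% and 13.4% of all genes tested (median log2 1.23). The kinase Gsk3a was at 26.1, 17.2 and 21.8 RPKM against 6.51, 7.12 and 6.95 (log2 1.66 ± 0.39, SE; adjusted p = 0.00726, edgeR). It was at 23.2 to 37.4 RPKM in 2d-U and was lower in F than in 2d-U (-1.10, adjusted p = 0.0355, edgeR). Fbxw11, which marks β-catenin for degradation, and the scaffold Axin1 had log2 fold changes of 2.09 (adjusted p = 0.0219, edgeR) and 1.88 (adjusted p = 0.0270, edgeR), with 2+3d-C replicate 5 inside the 5d-U range for both. The scaffold Apc, named after its values were seen, was the other of the 4. Gsk3a was the only one of the 8 called without 5d-U replicate 1, 5d-U replicate 6 or 2+3d-C replicate 4. The kinase Csnk1a1 had 0.80 (adjusted p = 0.149, edgeR). Without the 4 doubted libraries 0 of the 8 were called.

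Of 9 TCF factors and cofactors, 0 were called higher and 1 lower in compressed than in 5d-U cells, beside 9.14% and 13.4% of all genes tested (median log2 0.34). This was Ctnnbip1, an inhibitor that keeps β-catenin from TCF factors, at 5.15, 1.77 and 1.13 RPKM in 2+3d-C and 8.37, 29.2 and 52.3 in 5d-U (log2 -3.47 ± 0.70, SE; adjusted p = 0.00293, edgeR). The call remained without the 4 doubted libraries. Lef1 was at no more than 1.54 RPKM in any library, and its log2 difference was -2.84 (adjusted p = 0.126, edgeR). Pygo1 had 1.66 (adjusted p = 0.356, edgeR), Pygo2 0.34 (adjusted p = 0.601, edgeR) and Tcf7l1 0.39 (adjusted p = 0.571, edgeR).

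Of 12 target genes of β-catenin, 11 could be tested, and in 2+3d-C 1 was called higher and 2 lower than in 5d-U, beside 9.14% and 13.4% of all genes tested (median log2 -0.07). Myc, a growth regulator, was at 2049.9, 2764 and 1283 RPKM in 2+3d-C against 137, 45.2 and 43.0 in 5d-U (log2 4.76 ± 0.58, SE; adjusted p = 7.74e-05, edgeR). Ccnd1, the cyclin D1 of the G1 phase, was at 4.46, 4.89 and 0.455 RPKM against 160, 55.3 and 238 (log2 -5.54 ± 0.85, SE; adjusted p = 4.74e-04, edgeR). Both genes have other regulators besides β-catenin, and both calls remained without the 4 doubted libraries. Lgr5, the other gene called lower, had 0 reads in every 2+3d-C library and 68, 12 and 15 in 5d-U replicates 1, 2 and 6, where 39.4 of the 68 were expected from silent families. It was not called without 5d-U replicate 1 or 6, with any 1 of the 2+3d-C libraries left out, or without F replicate 4 or 5. The Wnt inhibitor Nkd2 had -1.17 (adjusted p = 0.552, edgeR). F cells had the same 2 directions against 2d-U, with Myc at 1.6 (adjusted p = 0.0247, edgeR) and Ccnd1 at -3.73 (adjusted p = 0.00312, edgeR).

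**Figure D5:**
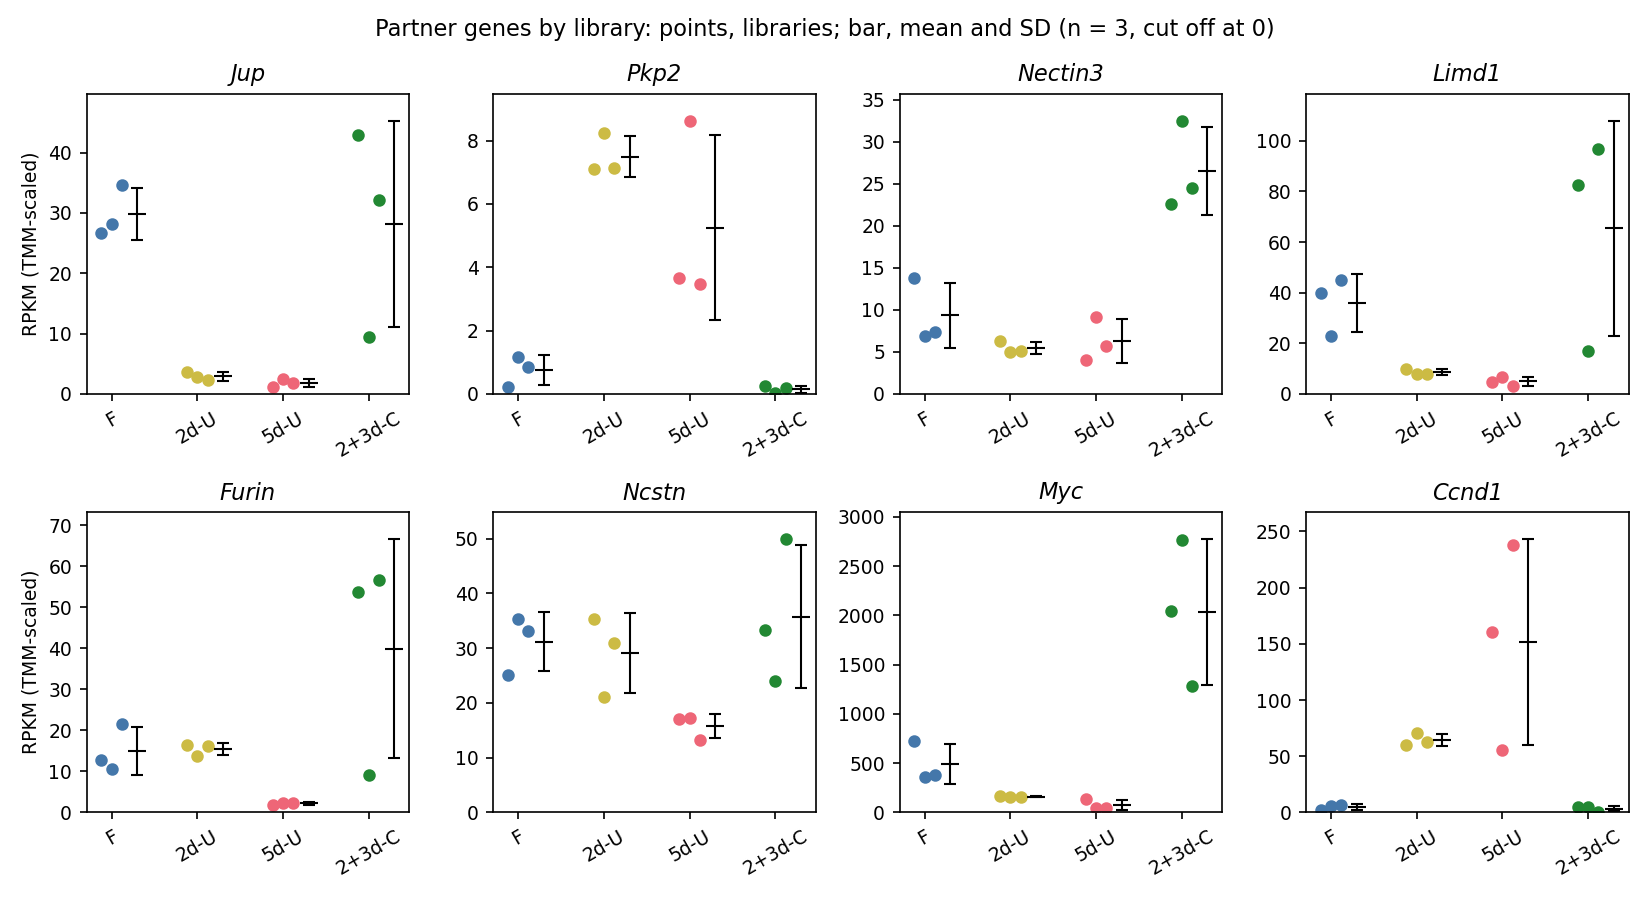
RPKM (vertical axis, linear from 0) of 8 partner genes in the 4 groups. Each point is 1 library, and the bar beside it gives the mean and SD of the 3. Jup ran from 26.6 to 34.7 in F and from 9.37 to 42.9 in 2+3d-C and was at most 3.69 in the uncompressed cultures, while Ccnd1 was at most 6.93 in F and 2+3d-C.

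The genes most like each member over the 12 libraries were found among the 8807 genes whose mean was 10 CPM or more (reads scaled to library size), by Pearson's r of log2 CPM. For Cdh13 they were Klf4 (r = 0.987) and Sorbs3 (0.986), and for Cdh2 Baiap2l1 (0.981) and Eme1 (0.979). For Cdh4 they were Eea1 (0.963) and Helz2 (0.957), for Cdh11 Irak2 (0.938) and Laptm5 (0.889), and for Cdh15 Naa25 (0.928) and Kdm1a (0.927). For Ctnnd1 they were Ahctf1 (0.966) and Smad5 (0.963), for Ctnna1 Hmgcs1 (0.948) and Tmx3 (0.928), and for Ctnnb1 Ankle2 (0.919) and Fam91a1 (0.918). These values describe libraries that fall into 4 groups and are the highest of 8807, and they carry no test.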

How the data were processed

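RNA-seq of 12 mouse MuSC libraries (3 in each of 4 groups) was analysed, with groups taken from the labels. The authors amplified cDNA with SMART-seq v4, aligned single-end reads to mm10 and deposited raw counts per gene, from featureCounts 1.6.4 without strand, with exon lengths. Reads carry no molecular identifiers, so limits set from 3 reads cover counting error only. A merged table held the same counts in all 12 columns. No 2 replicates agreed within sampling noise (chi-square per gene 48.0 or more).

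Counts were fitted in R 4.3.3 with edgeR 4.0.16 (filterByExpr, TMM, 1 quasi-likelihood model of 12 libraries, two-sided tests, Benjamini-Hochberg adjustment over 22635 genes, calls at 0.05) and tested on simulated data. DESeq2 1.42.0, other scalings and filters, subtraction of reads expected from silent families, and left-out libraries were alternatives, and the overlap-free exon length was added after seeing the data. log2 CPM used a prior count of 2. The members and lists were chosen with earlier results of these data known. Members were all named; of each pathway list, the 3 genes with the highest mean RPKM and the 3 with the smallest p in 2+3d-C against 5d-U, and each called cadherin or catenin. RefSeq promoters of Ctnnd1, Ctnnb1 and Cdh15 were matched. A gene of the glial list and a gene of the cadherin processing list are not reported here and were left out of sums and counts.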

Additional observations from a re-analysis of the deposited data

How the results depend on the processing

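The 8 members were refitted in the 6 comparisons under 19 alternatives, which gave 912 values. Of these, 801 kept direction and side of the threshold, 38 lost a call, 28 gained one and 45 changed sign. The precision is set by 3 libraries per group and by few reads for Cdh11 in 2+3d-C and Cdh4 in 2d-U. Without TMM the median log2 fold change of all genes moved from -0.76 to -1.24 in 2+3d-C against F and from 1.13 to 0.65 in 5d-U against 2d-U.

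Without the 4 libraries with reads on silent families, members called fell to 2 over the 4 groups, 2 in 2+3d-C against 5d-U, 3 in 2+3d-C against 2d-U, 0 in 2+3d-C against F, 1 in F against 2d-U and 0 in F against 5d-U, where only 1 library of F or 5d-U is left. The shares of all genes called fell too, from 44.3% to 11.3% over the 4 groups, from 22.6% to 5.90% in 2+3d-C against 5d-U, from 6.40% to 0.0985% in 2+3d-C against F and from 20.5% to 0.897% in F against 5d-U. In 2+3d-C against F, DESeq2, no filter and the 2 groups alone each called 2 members, beside 18.2%, 5.60% and 9.19% of all genes tested. DESeq2 called 6 in F against 2d-U (45.9% of all genes) and 4 in F against 5d-U (29.1%), where unscaled library sizes and subtraction each called 1 (19.3% and 29.6% of all genes). With libraries left out singly, calls ranged from 3 to 5 in 2+3d-C against 2d-U, beside 13.5% to 21.1% of all genes tested. They ranged from 1 to 2 in 2+3d-C against F (1.04% to 36.3% of all genes) and from 2 to 4 in F against 2d-U (18.6% to 59.6%). In F against 5d-U they ranged from 1 to 3 (11.2% to 19.0%), and in 5d-U against 2d-U from 0 to 1 (0.565% to 4.78%).

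Deviations of same-numbered libraries from their group means were not positively correlated (r from -0.42 to 0.03). With means of 3 libraries and few such pairs, this cannot decide whether the numbers mark a shared sort. The paper reports that each sorted batch was spread at random over the conditions, without naming the libraries. With the replicate number as a block, calls fell to 2 in 2+3d-C against 2d-U and to 3 over the 4 groups, beside 8.51% and 28.8% of all genes tested. The 2 were Cdh2 and Cdh11, so Cdh13 was not called there.

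No sign change touched a value that was called in the main analysis, and the causes were not tested. Without the 4 libraries, the log2 fold change was 0.13 for Cdh2 in 2+3d-C against F and 0.36 in 5d-U against 2d-U, -0.36 and -0.76 for Cdh11 in F against 2d-U and against 5d-U, and in 2+3d-C against 5d-U -0.16 for Cdh15, -0.65 for Ctnna1 and -0.30 for Ctnnb1, which was at -0.29 in F against 5d-U. With the block, Cdh11 was at -0.68 and -1.90 in F against 2d-U and 5d-U. In 5d-U against 2d-U, Cdh15 was at -0.10 without TMM and -0.050 with the 2 groups alone. Without TMM, Ctnna1 was at -0.016 and -0.0060 in 2+3d-C against 5d-U and 2d-U. Ctnnb1 in 2+3d-C against F was at -0.18 by DESeq2, -0.35 without TMM, -0.14 with the block, -0.048 with the 2 groups alone, -0.10 after subtraction and -0.0029 without the 4 libraries. Ctnnd1 in 5d-U against 2d-U was at -0.094, -0.32, -0.069, -0.22, -0.27 and -0.26 under the same alternatives and at -0.19 with no filter. With libraries of the compared groups left out singly, the ranges in F against 5d-U were -0.073 to 1.21 for Cdh11 and -1.25 to 0.16 for Cdh15. In 5d-U against 2d-U they were -0.80 to 0.62 for Cdh15, -0.14 to 0.75 for Ctnna1, -0.38 to 0.73 for Ctnnb1 and -0.041 to 0.36 for Ctnnd1. They were -0.25 to 0.65 for Ctnna1 in 2+3d-C against 5d-U, and -0.34 to 0.42 for Ctnnb1 in 2+3d-C against F.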
